A study of Mus musculus with 24 samples.

Results

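The comparison described here set the hippocampus of Npc1-/- mice treated with dipyridamole against the hippocampus of Npc1+/+ mice given vehicle, and asked which differences of the disease model were present in treated animals. Its libraries were chosen by the labelled tissue, genotype and treatment and numbered 8 of the 24 in the study, 4 in each group and 1 from each mouse. The mice were littermates of the BALB/cNctr-Npc1m1N/J strain, and the Npc1-/- mice carried the null allele in every tissue. The treated mice received dipyridamole by intraperitoneal injection, 30 mg/kg in PBS with PEG400, starting at postnatal day 28 and given on 5 days of each week, and were 63 days old when the brain was taken. The Npc1+/+ mice received the vehicle on the same schedule and were 65 days old. The Npc1+/+ mice were all female, while treated replicates 1 and 2 were male and replicates 3 and 4 female. Each replicate was a separate animal. Another hippocampal group of 4 Npc1-/- mice given vehicle, 63 days old and of both sexes, entered the model and served to ask whether treated and untreated values differed. RNA was read with a targeted panel of 1 short amplicon per gene (Ion AmpliSeq Transcriptome Mouse), and the values were read counts per gene.

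NPC1 is a membrane protein of late endosomes and lysosomes that passes cholesterol out of these organelles, and without it cholesterol and sphingolipids build up inside cells. In the brain of mice without it, microglia and astrocytes become reactive, myelin is poorly formed and neurons are lost, Purkinje cells of the cerebellum before most others. Dipyridamole blocks the equilibrative nucleoside transporter, which raises extracellular adenosine, and it also inhibits cyclic nucleotide phosphodiesterases.

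The 8 libraries held 6767704 to 11590081 counts, and any 2 libraries of a group differed by far more than sampling noise. The hippocampal library of treated replicate 4 stood apart, and the labels give it ion code 124, which they also give to the cerebellar library of the same mouse. Prox1, the transcription factor of dentate granule neurons, stood at 134, 126, 131 and 118 CPM (read counts scaled to the library size) in Npc1+/+ replicates 1 to 4 and at 109.9, 128, 105 and 14.2 CPM in treated replicates 1 to 4. Dsp, a desmosomal gene of the dentate gyrus, was at 37.3, 64.3, 41.2 and 1.44 CPM in the treated libraries, and Fibcd1, a gene of hippocampal CA1 neurons, at 40.4, 39.5, 22.7 and 2.23 CPM. In replicate 4 each of these genes was several-fold below every other hippocampal library. The cortical genes went the other way. Cux2, a transcription factor of upper cortical layers, was at 40.4, 21.2, 33.3 and 134 CPM and Rorb, of cortical layer neurons, at 30.2, 29.9, 25.6 and 66.7 CPM in treated replicates 1 to 4. The score of hippocampal principal neurons, the mean log2(CPM + 1) of 22 genes, was 5.21 in treated replicate 4 against 6.37 to 6.53 in the other treated and 6.32 to 6.48 in the Npc1+/+ libraries. Of 20 listed cerebellar genes, 9 had enough counts to be tested. Their score was also highest there, 4.31 against 3.53 to 3.91 in the other 11 hippocampal libraries. Of its members, Cbln1, a synaptic organizer of granule cells, was at 2.86, 2.196, 8.96 and 27.4 CPM in treated replicates 1 to 4, and Gabrd, a GABA receptor subunit, at 14.3, 20.4, 17.6 and 48.7 CPM. Car8 and Pvalb were also highest in replicate 4. Rgs8 was lowest there, at 60.8, 64, 53.4 and 40.3 CPM in treated replicates 1 to 4. Pcp2, Pax6, Cbln3 and Zic2 lay within the range of the other hippocampal libraries. Of the listed genes too low to be tested, En1, En2, Cdh15, Ppp1r17, Gabra6 and Neurod1 had 0 CPM in replicate 4. Barhl2, Fat2, Zic1 and Crtam stood at 0.13 to 0.66 CPM there, within the range of the other hippocampal libraries. Svep1 was highest in replicate 4, at 2.1 CPM. Gabra6, a gene of cerebellar granule cells, and Neurod1, also listed for newborn neurons, were at or near 0 in all 12 hippocampal libraries. Whether this library holds the tissue its label gives is in doubt, and what sets it apart was not tested. Every value printed for treated replicate 4 carries that doubt. The main counts of genes are given with and without it, while most single fold changes are given only from the fit that holds it.

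**Figure D1:**
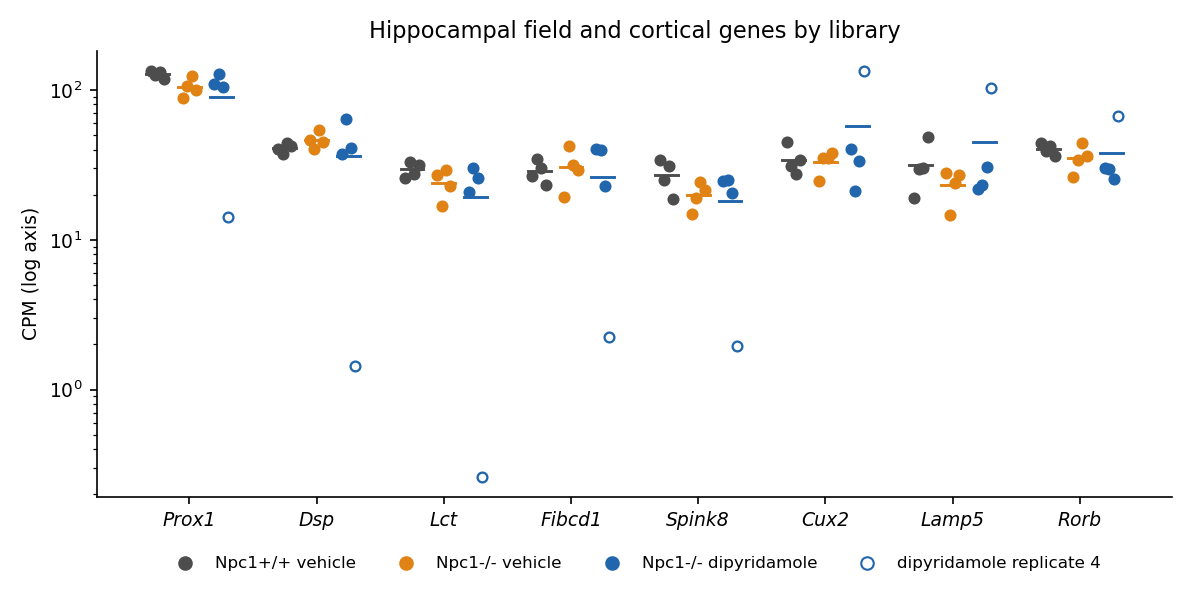
CPM (log axis) of 5 genes of hippocampal fields (Prox1, Dsp, Lct, Fibcd1, Spink8) and 3 genes of cortical neurons (Cux2, Lamp5, Rorb) in each of the 12 hippocampal libraries. Bars are group means, and the open circle is dipyridamole replicate 4, which lay below all other libraries for the first 5 genes and above them for the last 3.

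The genotype was checked first on Npc1 itself (ENSMUSG00000024413.15). Npc1 was at 60.5, 67.99, 76.3 and 95.1 CPM in Npc1+/+ replicates 1 to 4 and at 16.97, 18.6, 20.4 and 14.96 CPM in treated replicates 1 to 4, so every treated library lay below every Npc1+/+ library. The log2 fold change was -2.13 ± 0.20 (SE), with an adjusted p (edgeR's quasi-likelihood test) of 7.12e-05.

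Across the hippocampus, treated Npc1-/- mice still differed from wild type in 342 of 12740 genes tested at an adjusted p under 0.05 (2.68% of the genes tested), 203 higher (1.59%) and 139 lower (1.09%). Of these, 249 changed at least 2-fold, and in 329 the 4 treated and 4 Npc1+/+ libraries did not overlap, 195 higher and 134 lower. Over all genes tested, 843 (6.62%) lay wholly higher and 746 (5.86%) wholly lower, so most genes that separated in this way were not called. The higher genes were led by genes of activated microglia, complement and interferon response, and the lower genes by genes of myelinating oligodendrocytes. The median log2 fold change over all tested genes was -0.02. Without treated replicate 4 the same test called 130 of 12974 genes (1%), 74 higher (0.57%) and 56 lower (0.432%). Of the 342 genes, 125 passed in both fits and all 342 kept their direction, while 5 genes passed only without that library. Of the 15 highest and 15 lowest called genes whose groups did not overlap and whose mean CPM was 5 or more, all passed in both fits except Prr18. The count of 342 was also moved by leaving out single Npc1+/+ libraries, to 199 without replicate 2 and 178 without replicate 3. All fold changes below are log2 values from the fit with sex as a covariate and all 4 treated libraries, unless another fit is named. They need not equal the ratio of the mean CPM. The list counts below are to be read against the shares over all genes tested. These were 1.59% higher and 1.09% lower with all libraries, and 0.57% and 0.432% without replicate 4.

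**Figure D2:**
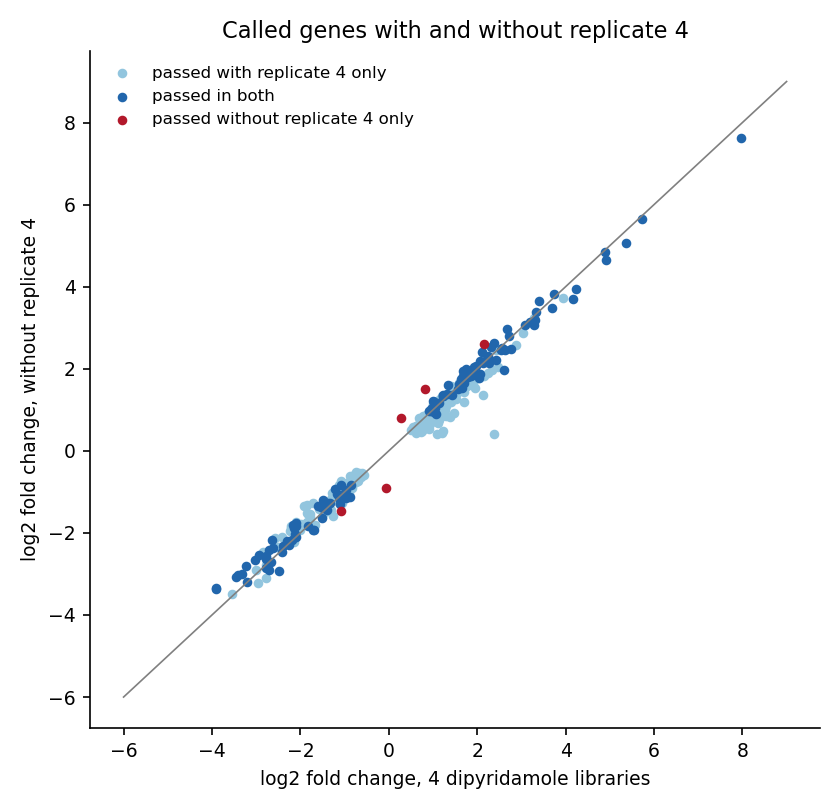
Log2 fold change (dipyridamole Npc1-/- minus Npc1+/+ hippocampus) with all 4 treated libraries (x axis) and without replicate 4 (y axis) for the genes that passed an adjusted p of 0.05 in either fit. Points are genes, 125 in dark blue passed in both fits, 217 in light blue only with replicate 4 and 5 in red only without it, and the line marks equal values.

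Microglia, the phagocytes of the brain, gave the highest genes. Of a list of 28 genes of disease-associated microglia, the state that microglia take on around damage, 25 were measured, 14 of them were higher in treated Npc1-/- hippocampus and none was lower, with a median of 1.47. Without replicate 4, 12 of 25 were higher, all among those 14, and the median was again 1.47. In 19 of the 25 the treated libraries all lay above the Npc1+/+ libraries, which was the case for 6.62% of all genes tested. In bulk tissue, more cells of a type and more RNA per cell cannot be told apart.

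Itgax (ENSMUSG00000030789.10, chromosome 7, 127728719 to 127749829, plus strand in GRCm39) encodes CD11c, an integrin of activated microglia. It was at 1.03, 0.339, 0.515 and 0.731 CPM in Npc1+/+ replicates 1 to 4 and at 5.54, 6.04, 11.2 and 18.2 CPM in treated replicates 1 to 4. The groups did not overlap, and within the treated group the highest library was replicate 4. The log2 fold change was 4.16 ± 0.40 (SE), with an adjusted p (edgeR's quasi-likelihood test) of 7.12e-05, and 3.69 ± 0.38 without replicate 4. Clec7a (ENSMUSG00000079293.13, chromosome 6, 129438554 to 129449742, minus strand), the pattern receptor Dectin-1, went from 0.773, 0.113, 1.16 and 1.17 CPM to 9.11, 12.1, 11.6 and 19.4 CPM, a log2 fold change of 4.25 ± 0.43. Here too replicate 4 was the highest treated library and no treated library came near the Npc1+/+ range. Lyz2 (ENSMUSG00000069516.9, chromosome 10, 117113236 to 117118226, minus strand), a lysozyme gene active in myeloid cells, went from 12.6, 11.97, 10.8 and 9.06 CPM to 53.8, 87.6, 99.1 and 135 CPM (3.29 ± 0.28), and reads of its near copy Lyz1 may be shared with it. The spread among treated mice in these 3 genes was wider than in Cd68, a lysosomal glycoprotein of phagocytes. Cd68 stood at 16.2, 16.3, 15.96 and 23.4 CPM in Npc1+/+ and 75.2, 81.02, 85.4 and 79.01 CPM in treated hippocampus (2.25 ± 0.22). Over 24 alternative fits, the fit without replicate 4 among them, the fold change of Clec7a lay from 3.88 to 4.474. That of Lyz2 lay from 3.066 to 3.389 and that of Cd68 from 2.127 to 2.395.

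Receptors and their adaptors moved with them. Trem2, a lipid-sensing receptor of microglia, was at 16.8, 7.57, 14.4 and 10.1 CPM in Npc1+/+ and 51.8, 44.02, 42.98 and 45.8 CPM in treated libraries (2.07 ± 0.35). Its signalling adaptor Tyrobp was at 12.02, 16.3, 16.1 and 17.7 CPM against 44.6, 62.6, 69.5 and 68.2 CPM (2.14 ± 0.18). For both genes the treated and Npc1+/+ libraries were far apart. C3ar1 (ENSMUSG00000040552.9, chromosome 6, 122824097 to 122833120, minus strand), the receptor of the complement fragment C3a, shared the smallest adjusted p of the comparison with C4b, 7.43e-06 by edgeR's quasi-likelihood test. It was at 4.04, 3.61, 3.86 and 2.63 CPM in Npc1+/+ and 19.8, 23.9, 32 and 31.6 CPM in treated libraries, a log2 fold change of 3.09 ± 0.21. Of the 19 measured genes of the list of myeloid receptors and signalling, C3ar1 among them, 14 were higher and none lower, with a median of 1.34. That count fell to 6 of 20 without replicate 4, with a median of 1.20, and leaving out Npc1+/+ replicate 1, 2, 3, untreated replicate 3 or treated replicate 3 gave 7 to 9. The 4 with the smallest p, C3ar1, the Fc receptor genes Fcgr3 (1.14 ± 0.15) and Fcer1g (1.43 ± 0.20), and Laptm5 (1.03 ± 0.16), a lysosomal membrane protein of blood and microglial cells, passed in both fits.

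Genes of phagocyte effectors were also higher. Hvcn1, the voltage-gated proton channel of phagocytes, was at 2.32, 5.08, 2.45 and 5.41 CPM in Npc1+/+ and 12.3, 21.4, 23.6 and 23.9 CPM in treated libraries (2.54 ± 0.40). Hpse, the heparanase that cleaves heparan sulfate, was at 1.63, 1.35, 2.96 and 2.63 CPM and 7.86, 7.68, 8.96 and 11.7 CPM (2.27 ± 0.29). Neither gene had overlapping groups. Cst7, which encodes the cathepsin inhibitor cystatin F, had no count in the 4 Npc1+/+ libraries and 124 counts in the treated ones, at 3.12, 2.75, 2.98 and 5.12 CPM. Against a floor of 3 counts over the Npc1+/+ group it was at least 40.0-fold higher. Atp6v0d2, which encodes a proton pump subunit found in osteoclasts and macrophages, had 2 counts in the Npc1+/+ libraries and 95 in the treated ones, a ratio of 45.9 with an exact counting interval of 12.4 to 385, which covers counting error only. Of 14 genes of homeostatic microglia 1 was higher, none without replicate 4, and the median was 0.47, while 1.59% of all genes tested were called higher.

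**Figure D3:**
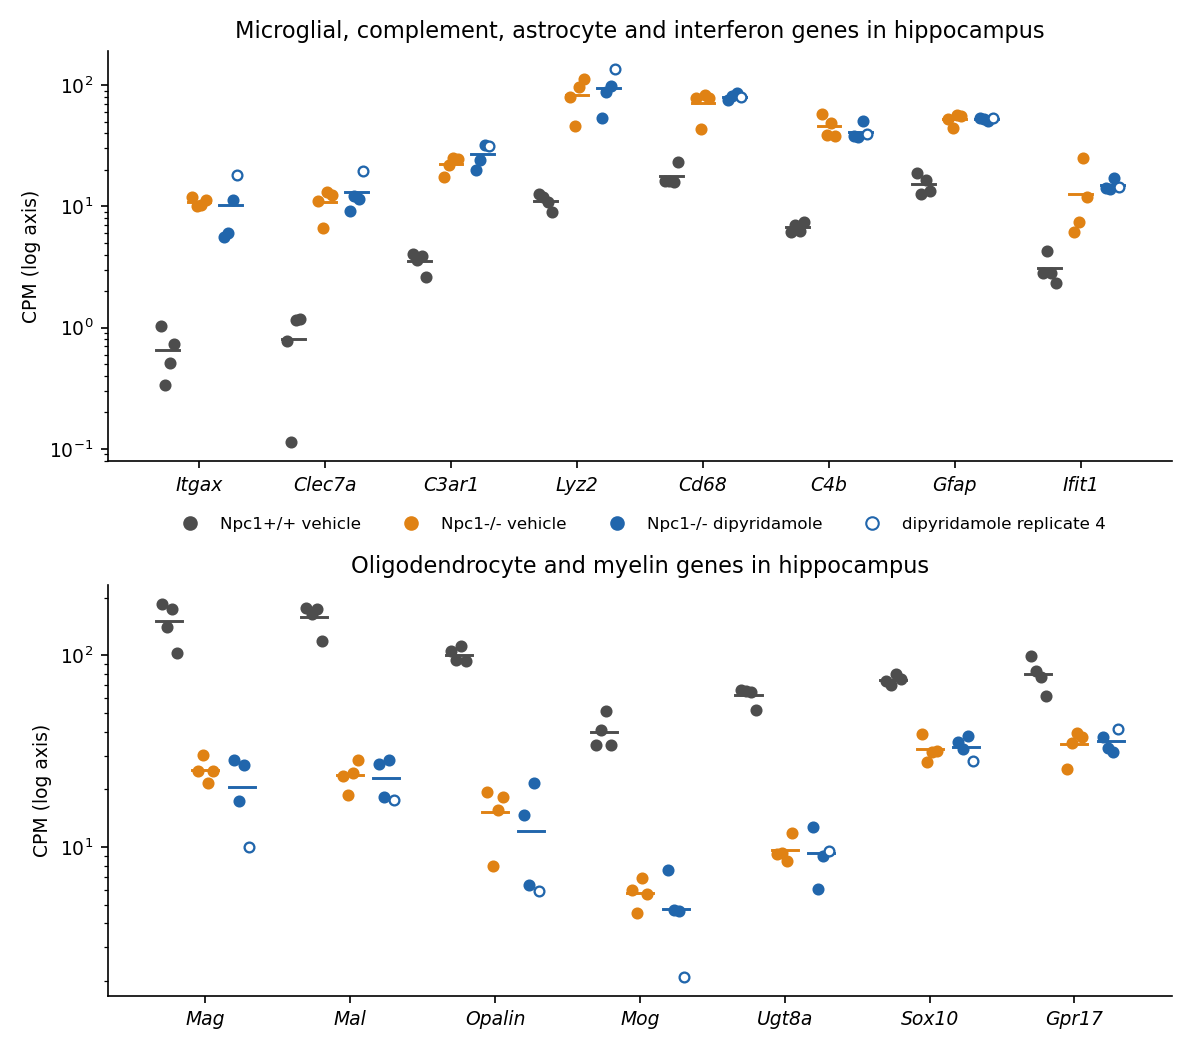
CPM (log axis) in each hippocampal library, with bars at group means and dipyridamole replicate 4 as an open circle. Upper panel, genes of microglia, complement, astrocytes and interferon response, in which every dipyridamole library lay above every Npc1+/+ library. Lower panel, genes of the oligodendrocyte lineage, in which every dipyridamole library lay below every Npc1+/+ library.

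Of the complement genes 3 were higher and 1 was lower. C4b (ENSMUSG00000073418.5, chromosome 17, 34947354 to 34962856, minus strand), complement component C4, was at 6.18, 7.002, 6.31 and 7.45 CPM in Npc1+/+ and 38.1, 37.1, 50.7 and 39.4 CPM in treated libraries, a log2 fold change of 2.71 ± 0.19 with an adjusted p (edgeR's quasi-likelihood test) of 7.43e-06. Replicate 3 was the highest, and all 4 treated libraries lay far above the wild type. Of the 8 measured complement genes, C4b, C1qc (1.93 ± 0.25) and C1qb (1.58 ± 0.25), chains of the C1q initiator, were higher in both fits. Cd59a, an inhibitor of the membrane attack complex, was lower (-1.31 ± 0.29) but did not pass without replicate 4, with an adjusted p of 0.0905.

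Interferon-stimulated genes, which cells switch on through interferon receptors and the factors STAT and IRF, were higher as well. Of 21 measured members, 8 were higher and none lower, with a median of 1.48. The count was again 8 without replicate 4, of which 7 were shared, with a median of 1.37. Irf7, the transcription factor that amplifies the response, was at 3.35, 2.94, 2.32 and 3.07 CPM in Npc1+/+ and 10.4, 14.3, 14.9 and 8.4 CPM in treated libraries (2.10 ± 0.26). Ifit1 (ENSMUSG00000034459.9, chromosome 19, 34618271 to 34627409, plus strand), which binds foreign RNA, was at 2.83, 4.29, 2.83 and 2.34 CPM and 14.3, 13.8, 17.1 and 14.3 CPM (2.68 ± 0.35), and Oasl2, of the oligoadenylate synthase family, at 3.44, 5.08, 3.73 and 1.899 CPM and 14.6, 18.8, 20.1 and 13.8 CPM (2.39 ± 0.33). In these 3 genes replicate 4 was not the highest treated library, and the fold changes without it were 2.40 ± 0.25, 2.96 ± 0.38 and 2.63 ± 0.35. Ifi44 (3.39 ± 0.45), the chemokine Cxcl10 (4.92 ± 0.65), Trim30a (1.98 ± 0.28), Rtp4 (1.74 ± 0.28) and Lgals3bp (1.58 ± 0.31) were the other 5, and Usp18, the protease that removes ISG15, took the place of Lgals3bp without replicate 4. Cxcl10 had 6 counts in the Npc1+/+ libraries together and 2.86, 4.28, 6.33 and 7.48 CPM in treated replicates 1 to 4.

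The promoters of these genes were searched for the core of the interferon-stimulated response element (GAAA, any 2 bases, GAAA) on both strands of the 250 bases before and 50 bases after the annotated start (RefSeq, GRCm38.p6). It was found in 3 of the 7 called members with a promoter in the table (Cxcl10, Ifit1, Trim30a) and in 9 of 16 measured members with an entry, against 3.99% of 27025 genes counted in the same way. Rtp4 was the called member with no entry in the table. The 250 bases before the start of Ifit1 (chr19:34640639-34640888, plus strand) and Cxcl10 (chr5:92348890-92349139, minus strand) are shown 5′ to 3′ on the strand of the gene, because these 2 are the called members with the largest changes that hold the motif. Capitals mark the matches, which in Ifit1 lie on the opposite strand and so read TTTC, any 2 bases, TTTC. The match in Cxcl10 begins 213 bases before the start and the first match in Ifit1 104 bases before it. A match describes these letters only.
Ifit1: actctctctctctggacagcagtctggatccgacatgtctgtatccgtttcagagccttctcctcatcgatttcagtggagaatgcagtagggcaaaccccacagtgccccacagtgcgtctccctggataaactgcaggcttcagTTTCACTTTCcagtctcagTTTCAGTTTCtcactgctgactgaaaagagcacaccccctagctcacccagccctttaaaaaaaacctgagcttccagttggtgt
Cxcl10: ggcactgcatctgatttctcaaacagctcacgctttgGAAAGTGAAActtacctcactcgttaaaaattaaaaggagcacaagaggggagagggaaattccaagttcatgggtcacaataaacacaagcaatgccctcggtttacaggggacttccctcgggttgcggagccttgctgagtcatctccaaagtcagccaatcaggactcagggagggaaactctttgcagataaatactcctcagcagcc

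Antigen presentation through class I followed. Of 12 measured genes 5 were higher and none lower, with a median of 1.12, and 3 passed without replicate 4. B2m, the light chain of class I molecules, was at 44.6, 50.4, 49.3 and 40.9 CPM in Npc1+/+ and 77.95, 96.2, 87.6 and 97.8 CPM in treated libraries (1.05 ± 0.15). The class I heavy chain gene H2-D1 was at 34.7, 31.5, 29.6 and 40.03 CPM and 108, 90.2, 129 and 108 CPM (1.76 ± 0.18), and H2-Q4 rose by 2.32 ± 0.30. Reads may be shared among the near-identical genes of the H2 family, so the split between them is uncertain. The immunoproteasome subunit Psmb8 (1.58 ± 0.27) passed with all libraries and had an adjusted p of 0.0524 without replicate 4. Of 11 measured chemokines and cytokines 4 were higher, Cxcl10, Cxcl16 (2.04 ± 0.25), Tgfb1 (1.13 ± 0.22) and Ccl2 (3.93 ± 0.91), of which the first 2 passed without replicate 4. Ccl2, which attracts monocytes, was at 0.447, 1.76, 3.82 and 3.94 CPM in treated replicates 1 to 4, against 0.429, 0.113, 0 and 0.146 CPM in Npc1+/+, so that treated replicate 1 lay barely above the highest Npc1+/+ library.

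Genes of reactive astrocytes, the support cells that respond to injury, were higher in part. Gfap (ENSMUSG00000020932.15, chromosome 11, 102778162 to 102791738, minus strand), the intermediate filament of reactive astrocytes, was at 18.9, 12.8, 16.6 and 13.4 CPM in Npc1+/+ and 53.9, 52.04, 50.98 and 53.7 CPM in treated libraries. The treated libraries lay within a few CPM of each other, and the log2 fold change was 1.79 ± 0.17 with an adjusted p (edgeR's quasi-likelihood test) of 7.12e-05. Of 16 measured genes of the reactive astrocyte list 6 were higher and none lower (median 0.98), 4 without replicate 4, among them Osmr (1.88 ± 0.22), the oncostatin M receptor, and Aspg (2.42 ± 0.35), an asparaginase. Etnppl, the astrocytic enzyme that breaks down phosphoethanolamine, was at 6.01, 6.89, 4.12 and 4.38 CPM and 28.04, 20.9, 18.3 and 24.02 CPM (2.18 ± 0.26). Of 13 general astrocyte markers 2 were higher (Aldoc 0.75 ± 0.16 and Ntsr2 0.51 ± 0.13), none of 14 without replicate 4, and the median was 0.09.

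The lysosome, the organelle that stores lipid when NPC1 is absent, was represented by 45 measured genes. Of these 8 were higher, 1 was lower (Mitf, a transcription factor of lysosomal genes, at -1.51 ± 0.34) and the median was 0.25. Over all genes tested, 1.59% were called higher and 1.09% lower. Without replicate 4, 5 were higher and none was lower. Besides Cd68, Laptm5, Ctsz (1.15 ± 0.21) and Man2b1 (0.92 ± 0.18), the higher genes included Ctss, the cathepsin of antigen-presenting cells (1.32 ± 0.20), Grn, progranulin (0.99 ± 0.15), and Ctsa, the protective protein cathepsin A. Grn was at 46.2, 54.4, 59.1 and 67.8 CPM in Npc1+/+ and 117, 113, 116 and 107 CPM in treated libraries. The structural membrane genes Lamp1 (0.18 ± 0.23) and Lamp2 (0.23 ± 0.20) did not pass. Of the 17 measured subunits of the vacuolar proton pump only Atp6v0d2 passed, and the median was -0.08. The motif CACGTG, the core of the lysosomal CLEAR element, was in the promoter of 1 of 8 called lysosomal genes with an entry, Ctsa (0.76 ± 0.19), and in 12 of 38 measured members, against 8.09% of the 27025 genes.

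No gene of cholesterol synthesis passed in either direction (0 of 21 measured, median -0.11, and 0 of 21 without replicate 4, median -0.21). Of the 21, 5 had a value above 0. In 4 of them all treated libraries lay below all Npc1+/+ libraries, against 5.86% of all genes tested. The 2 of the list with the smallest p were Sc5d, sterol C5-desaturase, at -0.70 ± 0.21 and Msmo1, methylsterol monooxygenase, at -0.50 ± 0.19. Their adjusted p (edgeR's quasi-likelihood test) were 0.0978 and 0.187. Sc5d was at 59.3, 57.3, 88.5 and 52.2 CPM in Npc1+/+ and 40.4, 47.97, 33.8 and 41.7 CPM in treated libraries. Of 20 measured genes of LXR targets and lipoproteins, Apoe alone passed, while 2.68% of all genes tested were called in either direction. Apoe, the main lipoprotein of brain lipid transport, was at 576, 559, 454 and 503 CPM and 1005, 958, 997 and 979.8 CPM, with groups far apart and a log2 fold change of 0.95 ± 0.13.

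**Figure D4:**
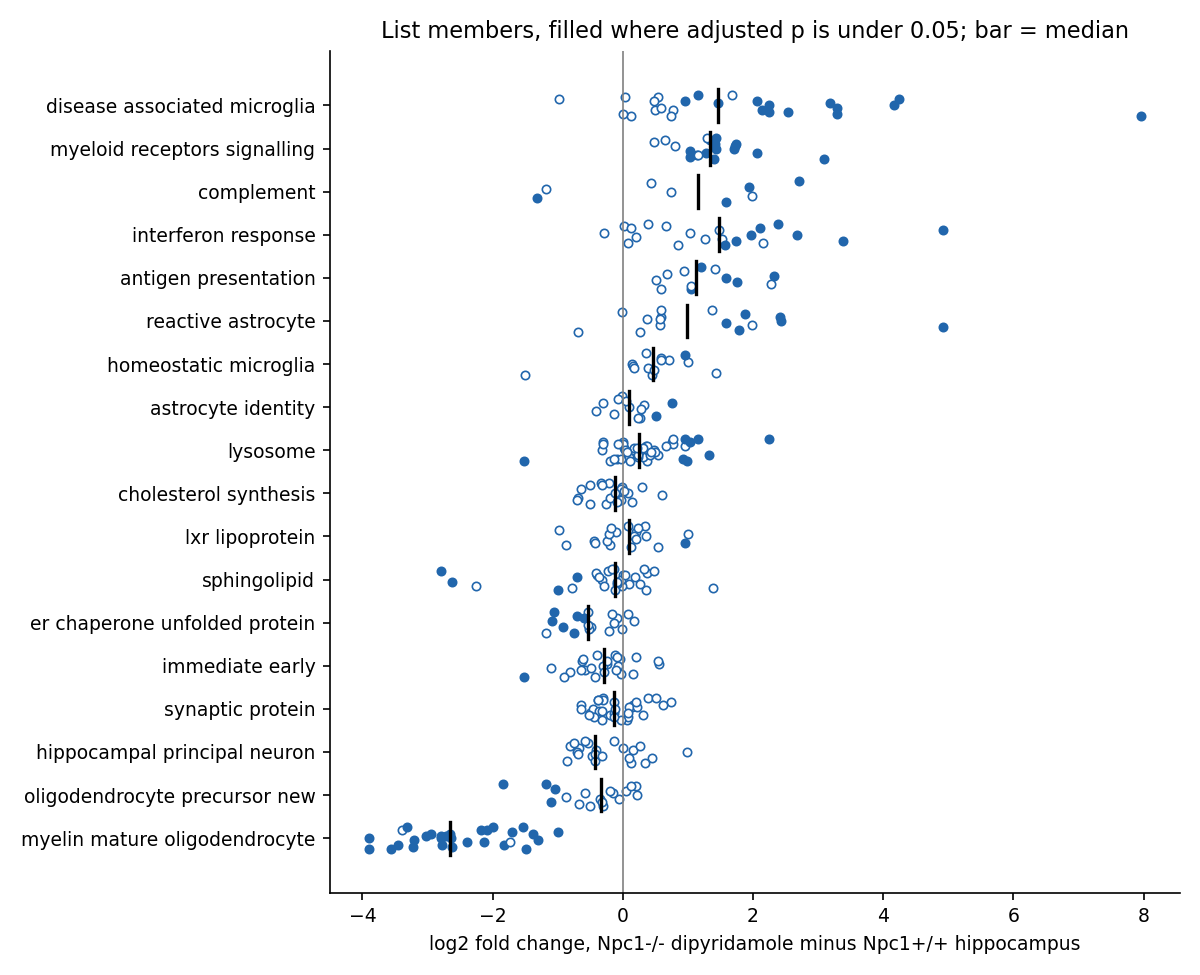
Log2 fold change (x axis, dipyridamole Npc1-/- minus Npc1+/+ hippocampus) of each measured member of 18 gene lists (rows). Filled points passed an adjusted p of 0.05, bars are list medians, and the point near 8 is Cst7, which had no count in Npc1+/+ libraries, so that its fitted value is not a measured fold. Members of the microglial and immune lists lie mostly to the right, those of the myelin list to the left and synaptic genes lie around 0. Cholesterol synthesis genes lie mostly below 0, with 5 of 21 above it.

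Myelin genes formed the other pole. Myelin is the membrane that oligodendrocytes wrap around axons. Of 30 measured genes of mature oligodendrocytes and myelin, 28 were lower in treated Npc1-/- hippocampus, none was higher and the median was -2.65. In 29 of them all treated libraries lay below all Npc1+/+ libraries, against 5.86% of all genes tested. Without replicate 4, 24 of 30 were lower, all among the 28, with a median of -2.39. That library had the lowest myelin score, 3.40, against 3.62 to 4.31 in the other treated, 3.99 to 4.36 in the untreated Npc1-/- and 5.81 to 6.13 in the Npc1+/+ libraries.

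Mal (ENSMUSG00000027375.15, chromosome 2, 127475146 to 127498615, minus strand), a proteolipid of myelin membrane sorting, was at 176, 165, 174 and 119 CPM in Npc1+/+ replicates 1 to 4 and at 27.1, 18.3, 28.5 and 17.6 CPM in treated replicates 1 to 4. The log2 fold change was -2.77 ± 0.24 with an adjusted p (edgeR's quasi-likelihood test) of 4.04e-05, and -2.57 ± 0.26 without replicate 4, the lowest library. Proteins of the contact between myelin and axon or of the outer sheath followed the same course. Mag (ENSMUSG00000036634.16, chromosome 7, 30598601 to 30614298, minus strand), myelin-associated glycoprotein, was at 185, 141, 175 and 102 CPM and 28.4, 17.5, 26.9 and 9.97 CPM (-3.03 ± 0.33), and Mog, myelin oligodendrocyte glycoprotein, at 34.01, 40.8, 51.1 and 34.2 CPM and 7.59, 4.72, 4.66 and 2.1 CPM (-3.23 ± 0.35). In both genes replicate 4 was the lowest treated library. Over 24 alternative fits, the fit without replicate 4 among them, Mag lay from -3.536 to -2.662 and Mog from -3.554 to -2.807.

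Genes of the gap junctions and tight junctions of oligodendrocytes fell with those of the sheath. Gjb1, connexin 32, was at 23.96, 19.4, 21.8 and 18.4 CPM in Npc1+/+ and 5.09, 1.76, 1.79 and 2.23 CPM in treated libraries (-3.21 ± 0.47). Cldn11, the claudin of myelin, was at 78.5, 75.6, 73.3 and 69.7 CPM and 11.4, 5.05, 17.6 and 8.53 CPM (-2.79 ± 0.37). Neither had overlapping groups. Other low genes were Opalin (-2.94 ± 0.42), Mobp (-2.64 ± 0.41) and Ppp1r14a (-2.71 ± 0.40) of myelinating cells, Aspa, which frees acetate from N-acetylaspartate (-2.66 ± 0.36), Nipal4 (-2.71 ± 0.41) and Prr18 (-2.58 ± 0.49). All passed without replicate 4 except Prr18, which then had an adjusted p of 0.0547.

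The enzymes that make the lipids of myelin were lower too. Ugt8a (ENSMUSG00000032854.13, chromosome 3, 125658920 to 125732268, minus strand), which makes galactosylceramide, was at 65.96, 65.3, 64.4 and 52.2 CPM in Npc1+/+ and 12.8, 6.04, 8.96 and 9.58 CPM in treated libraries, a log2 fold change of -2.79 ± 0.25. Fa2h, which hydroxylates its fatty acid, fell by 2.62 ± 0.34, and Gal3st1, which turns it into sulfatide, by 0.99 ± 0.18 on the log2 scale. These 3 and the ceramide synthase Cers2 (-0.70 ± 0.16) were the only lower members among 29 measured genes of sphingolipid metabolism, whose median was -0.12. Cers2 did not pass without replicate 4, with an adjusted p of 0.165.

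Fewer genes of the earlier stages of the lineage passed. Of 18 measured genes of oligodendrocyte precursors and newly formed oligodendrocytes 4 were lower (median -0.34) and 2 without replicate 4. Sox10, the transcription factor of the whole lineage, was at 73.1, 69.8, 79.8 and 74.8 CPM in Npc1+/+ and 35.5, 32.4, 37.7 and 28.1 CPM in treated libraries (-1.18 ± 0.17). Gpr17, a receptor of newly committed cells, was at 99.5, 82.5, 76.9 and 61.1 CPM and 37.6, 32.9, 31.3 and 41.1 CPM (-1.10 ± 0.20). Both passed in both fits, and Enpp6 (-1.84 ± 0.31) and Olig1 (-1.05 ± 0.24) passed only with replicate 4. The precursor genes Pdgfra (-0.51 ± 0.33) and Cspg4 (-0.06 ± 0.21) did not pass. Of 18 measured neurofilament and axon genes 1 was lower in both fits, Cntn2 (-1.11 ± 0.19), an adhesion protein of the region beside the node. The list median was -0.26, and -0.21 without replicate 4, with 2 of 18 values above 0. In 6 of the 18 all treated libraries lay below all Npc1+/+ libraries, against 5.86% of all genes tested.

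Neuronal genes passed the test in few cases. None of 22 measured genes of hippocampal principal neurons passed, with a median of -0.42 with replicate 4 and -0.02 without it. The 2 of the first list with the smallest p were Calb1 and Dkk3 (0.45 ± 0.14). None of 14 genes of GABAergic interneurons and none of 32 genes of synaptic proteins passed in either fit, with medians of 0.09 and -0.13. The smallest p among them belonged to Lhx6 (0.53 ± 0.22) and Npy for interneurons and to Shank2 (0.75 ± 0.21) for synapses. Calb1, the calcium buffer calbindin, was at 98.5, 112, 124 and 114 CPM in Npc1+/+ and 82.3, 96.2, 74.03 and 89.5 CPM in treated libraries, with an adjusted p (edgeR's quasi-likelihood test) of 0.104. Npy, neuropeptide Y, was at 51.2, 54.5, 54.1 and 49.8 CPM and 32.3, 41.7, 30.7 and 48.8 CPM (-0.43 ± 0.19), with an adjusted p of 0.269. Dcx, a marker of newborn neurons, was higher only with replicate 4, at 42.5, 26.8, 37.7 and 67.2 CPM in treated replicates 1 to 4 against 26.5, 22.9, 26.8 and 28.8 CPM in Npc1+/+, and its adjusted p without that library was 0.36.

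There were 5 genes that passed only when replicate 4 was left out. Hpca, hippocalcin, a calcium sensor of hippocampal pyramidal neurons, was at 1669, 1681, 1834 and 1749 CPM in Npc1+/+ and 2484, 2961, 2919 and 783 CPM in treated replicates 1 to 4. Treated replicates 1 to 3 lay above and replicate 4 far below the Npc1+/+ range, so the fold change was 0.28 ± 0.34 with it and 0.79 ± 0.17 without it (adjusted p 0.0421 by edgeR's quasi-likelihood test). Rgs4, a regulator of G protein signalling, showed the opposite, with 118, 103, 101 and 289 CPM in treated libraries against 152, 186, 192 and 160.4 CPM, and fold changes of -0.07 ± 0.31 and -0.91 ± 0.17. Sept4, a septin of glia and neurons, was at -1.08 ± 0.29 with and -1.47 ± 0.31 without replicate 4. Among 22 alternatives to the fit without replicate 4, Hpca passed in 10, Rgs4 in 13 and Sept4 in 9, with the same direction in all 22 and adjusted p of up to 0.609 for Hpca, 0.432 for Rgs4 and 0.346 for Sept4. The other 2 were Igfbpl1, of newborn neurons (1.51 ± 0.32 without replicate 4), and the interferon-stimulated Usp18 (2.60 ± 0.53).

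Among activity genes 1 was lower, and among stress genes a small group of chaperones was, whose count fell when single libraries were left out. Arc, an immediate early gene of synaptic plasticity, was at 128, 70.4, 142 and 93.8 CPM in Npc1+/+ and 44.6, 49.6, 33.8 and 42.8 CPM in treated libraries (-1.52 ± 0.28), below the wild type in every library. It alone passed among 25 measured immediate early genes (median -0.28), while 1.09% of all genes tested were called lower. Arc did not pass when treated replicate 3 was left out. Of 18 chaperones and unfolded protein response genes of the endoplasmic reticulum 6 were lower and none higher (median -0.53). Sdf2l1, of the BiP chaperone cycle, was at 49.8, 52.7, 43.6 and 51.4 CPM and 25.5, 25.8, 21.97 and 23.1 CPM (-1.09 ± 0.15). It passed in both fits, while Pdia4 (-0.92 ± 0.17), Manf (-0.74 ± 0.16) and Hspa5 (-0.71 ± 0.14), which encodes BiP, passed only with replicate 4, the list count without it being 1. The count was 2 or 3 without Npc1+/+ replicate 2 or 3, untreated replicate 3 or 4, or treated replicate 1 or 3. None of 15 genes of the integrated stress response, 25 of oxidative phosphorylation or 18 of autophagy passed in either fit, and of 15 genes of oxidative stress and metal response Mt1, metallothionein (0.77 ± 0.15), passed only with replicate 4. The members with the smallest p in the stress response, oxidative phosphorylation and autophagy lists were Atf3 (1.30 ± 0.34) and Ppp1r15a (0.64 ± 0.18), Uqcrfs1 (-0.37 ± 0.15) and Ndufb5 (-0.26 ± 0.17), and Atg12 (-0.45 ± 0.19) and Sqstm1 (0.30 ± 0.13).

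Genes tied to the known targets of the drug passed in 1 case. None of 14 measured genes of adenosine receptors and nucleoside handling passed in either fit. Adora1, the adenosine A1 receptor, was at 61.4, 48.6, 36.8 and 35.2 CPM in Npc1+/+ and 23.9, 27.3, 34.4 and 10.5 CPM in treated libraries, with an adjusted p (edgeR's quasi-likelihood test) of 0.121, and replicate 4 was again the lowest. Entpd2, which breaks down extracellular ATP, was at 0.60 ± 0.19. Of 18 phosphodiesterase genes Pde8a was lower (-1.77 ± 0.39), but not without replicate 4 (adjusted p 0.154). Over all genes tested 1.09% were called lower.

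Whether treated values differed from those of untreated Npc1-/- hippocampus was tested directly. The treated and untreated comparisons share the 4 Npc1+/+ libraries, so their values are given side by side only. No gene of 12740 passed between treated and untreated mice by edgeR's quasi-likelihood test (0%), 93 had an unadjusted p under 0.05, and DESeq2 likewise called 0, with 102 at that unadjusted level. Without replicate 4 the count was also 0, with 151 unadjusted. Each of these unadjusted counts was below a share of 0.05 of the genes tested, the share expected where nothing differs. The test was thus cautious in these data, and the count of 0 does not show that treated and untreated values were equal. In simulated data with known changes the test recovered 5.97% of genes changed 1.5-fold, 52.2% of those changed 2-fold and 92.4% of those changed 4-fold, so many differences of 2-fold or less could have been missed. For the 342 genes called between treated and wild-type mice, the median size of the treated minus untreated log2 difference was 0.13, below the median standard error of that difference, 0.23. Over all genes tested the median size was 0.1. Of the 342 genes called against wild type, 15 had an unadjusted p under 0.05 between treated and untreated mice, against 93 of 12740 genes in all. The 342 genes were chosen with the same treated libraries, so these shares are no test of the treatment. The myelin list had a median treated minus untreated value of -0.23, against -0.01 over all genes, in the fit with replicate 4. The myelin score of that library, 3.40, was the lowest of the hippocampal libraries. Treated replicates 1 to 3 scored 4.31, 3.62 and 4.08, against 3.99 to 4.36 in the untreated Npc1-/- libraries.

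Single genes are given with their values in the untreated mice. Itgax was at 11.9, 10.1, 10.2 and 11.4 CPM in untreated Npc1-/- replicates 1 to 4, within the range of the treated mice, with a treated minus untreated value of -0.42 ± 0.33 (log2). C4b was at 57.8, 39.1, 48.3 and 38.3 CPM in the untreated mice (-0.20 ± 0.17) and Mal at 23.6, 18.6, 24.4 and 28.4 CPM (-0.07 ± 0.21). Untreated minus wild-type values were 4.58, 2.91 and -2.71 for these genes. In each of the 3, treated and untreated libraries overlapped. The gene with the smallest p between treated and untreated mice was Slfn3, of the Schlafen family, at 6.52, 5.599, 5.49 and 4.33 CPM in treated, 1.99, 1.86, 3.17 and 2.44 CPM in untreated and 2.06, 3.16, 2.06 and 3.36 CPM in Npc1+/+ libraries. Its treated libraries lay above all others, and the treated minus untreated value of 1.18 ± 0.29 had an adjusted p (edgeR's quasi-likelihood test) of 0.9999. Rhog, a small GTPase, was at 0.714, 0.549, 0.597 and 0.525 CPM in treated, 1.69, 2.13, 0.9397 and 2.03 CPM in untreated and 1.98, 2.03, 2.96 and 1.61 CPM in Npc1+/+ libraries. Its treated libraries lay below all others, yet the treated minus untreated value of -1.30 ± 0.40 did not pass. The next by p were Ttc26 (-0.70 ± 0.21), Clec11a (0.79 ± 0.25) and Ice2 (0.70 ± 0.23).

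The treated genotype difference was then compared with that in the cerebellum of the same mice, where 1864 of 12921 genes (14.4%) passed. The difference between tissues, tested over all 24 libraries with the animal as a block, passed for 245 of 13436 genes (1.82%), 118 with the higher value in hippocampus (0.878%) and 127 with the lower (0.945%). Without both libraries of the mouse of replicate 4 the count was 131. The fall of myelin genes was larger in hippocampus: 24 of 31 measured myelin genes had a lower difference there, 19 without that mouse, with a median tissue difference of -2.25 and -2.04. The median myelin fold change in cerebellum was -0.29. Mag changed by -3.03 in hippocampus and -0.20 in cerebellum, a difference of -2.90 ± 0.32 (adjusted p 0.000113 by edgeR's quasi-likelihood test), and Mal by -2.77 and -0.53, a difference of -2.25 ± 0.25. Prima1, the membrane anchor of acetylcholinesterase, fell in hippocampus (-2.49, from 14.7, 15.02, 15.4 and 15.8 CPM to 2.41, 2.09, 2.63 and 3.94 CPM) and was at 0.29 in cerebellum, a difference of -2.81 ± 0.31.

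**Figure D5:**
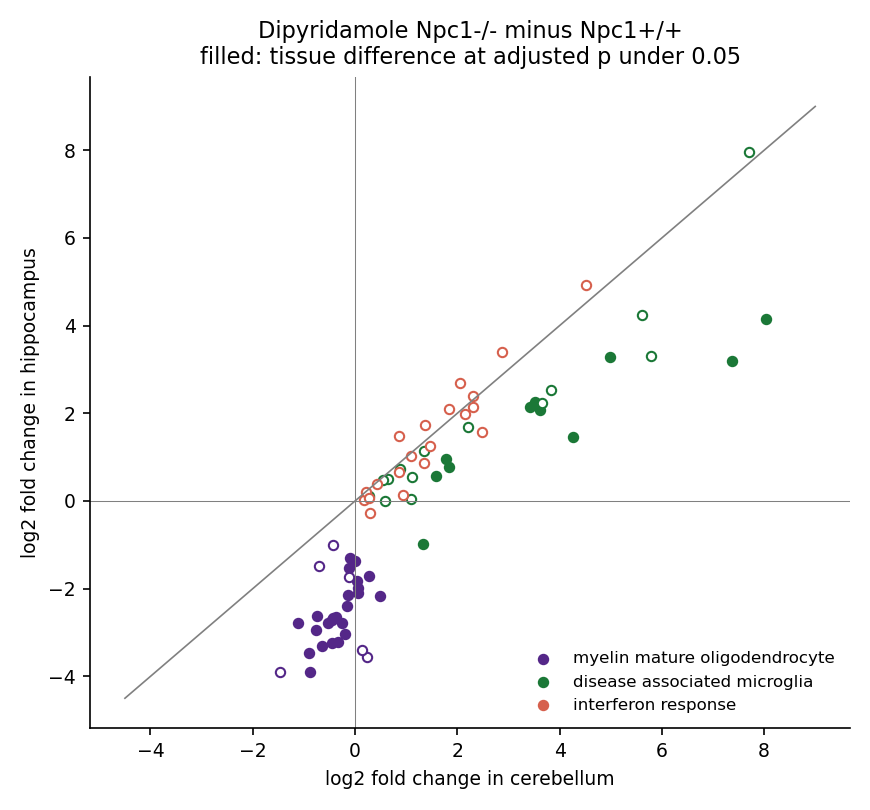
Log2 fold change of dipyridamole Npc1-/- over Npc1+/+ in cerebellum (x axis) and hippocampus (y axis) for the members of the myelin, disease-associated microglia and interferon lists. Filled points passed the test of the tissue difference at an adjusted p of 0.05, and the line marks equal values. Myelin genes lie low in hippocampus and near 0 in cerebellum, microglial genes lie mostly below the line and interferon genes along it.

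The microglial genes that differed between the tissues had the lower value in hippocampus. Of 25 disease-associated genes 11 had a lower difference in hippocampus, 5 without the mouse of replicate 4, with medians of -1.07 and -1.01. Gpnmb, which encodes a glycoprotein found in phagocytes loaded with lipid, rose by 3.19 ± 0.37 in hippocampus, from 0.429, 1.47, 1.93 and 0.731 CPM to 5.45, 5.27, 10.03 and 10.8 CPM, and by 7.37 in cerebellum, a difference of -4.11 ± 0.43 (adjusted p 7.01e-05 by edgeR's quasi-likelihood test). None of 21 interferon genes passed the test of the tissue difference, whose median was -0.09. The 6 named genes with the higher value in hippocampus fell in cerebellum and did not pass in hippocampus, Calb1, Car8 and Itpka among them, which are known from Purkinje cells. Calb1 was at -0.47 in hippocampus and -3.46 in cerebellum, Car8 at 0.66 and -3.98, Itpka at 0.08 and -3.79, and Tuba8 at 0.14 and -2.31. Icmt, which methylates prenylated proteins, at -0.16 and -2.40, and Cep76, a centrosomal gene, at -0.12 and -2.90, completed them. Each of these 10 named differences passed without that mouse too.

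Markers of other cell types that a dissected hippocampus can hold were looked at beside these results. No member of the endothelial (15 measured), mural and meningeal (13), neighbouring region (17) or cerebellar (9) list passed in either fit. Members with the smallest p were Vwf (1.36 ± 0.41) and Slc7a5 (0.49 ± 0.18), Ptgds (0.97 ± 0.35) and Col1a1 (-0.54 ± 0.23), Cux2 (1.04 ± 0.41), and Cbln1 (1.64 ± 0.54) and Pax6 (0.44 ± 0.15). Of the 17 blood genes 1 was measured, Alas2 of red cell precursors (-1.93 ± 0.57), and it did not pass. Of 24 collagen and matrix genes Hpse was higher in both fits and Tnc, tenascin C, was lower only with replicate 4 (-1.20 ± 0.29). Choroid plexus genes varied widely among libraries of both groups: the score of 17 genes was 5.95 and 5.98 in Npc1+/+ replicates 1 and 2, 1.67 and 1.85 in replicates 3 and 4, 5.14 in treated replicate 1 and 1.67 to 2.72 in treated replicates 2 to 4. None of the 17 passed, with a median fitted value of -3.40 and the smallest p for Calml4 (-3.38 ± 1.05) and Kcne2 (-3.88 ± 1.57). With that score as a covariate, 27 of 30 myelin genes, 13 of 25 disease-associated microglial genes and 8 of 21 interferon genes passed in the same directions as before, and 9 of 19 myeloid receptor genes. Ion code ranges and age both followed genotype, so their part in any difference from wild type cannot be told apart from it. With female mice only, 26 of 31 myelin genes were lower and 12 of 25 disease-associated microglial genes higher. That fit held treated replicates 3 and 4 only, so it rests in part on the library in doubt, and untreated replicate 3.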

How the data were processed

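Total RNA of hippocampus and cerebellum was read with the Ion AmpliSeq Transcriptome Mouse panel on an Ion S5, per the labels. Per the submitters' processing notes, FastQC 0.11.9, Trimmomatic 0.39, STAR 2.7.9a, GRCm39 and featureCounts 2.0.3 were used, and per the file headers reads were counted without strand on GENCODE M34. The values the authors deposited are unnormalized whole read counts of 57126 genes. Overlapping and antisense genes cannot be told apart in such counts, and where each amplicon lies was not analysed here. Symbols were matched by gene ID for 51884 IDs, and IDs without one held 0.21% of counts. Reads carry no molecular identifiers, so intervals and floors cover counting error only.

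The 12 hippocampal libraries were fitted with edgeR 4.0.16 (R 4.3.3): TMM factors, filterByExpr over the 3 groups, robust quasi-likelihood test, sex as covariate, Benjamini-Hochberg adjustment over all genes tested, threshold 0.05. Because all Npc1+/+ mice were female, sex was estimated from the Npc1-/- mice. CPM were computed from the TMM-adjusted library sizes. For the tissue difference all 24 libraries were fitted, with each mouse as a block and sex allowed to act differently by tissue. The labels number the animals, which pairs the 2 tissues of a mouse, and deviations of the 2 tissues of a mouse correlated from -0.467 to 0.382.

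Replicates were checked for a library deposited in duplicate, and none agreed within sampling noise (chi-square divided by its degrees of freedom 7.64 to 43.4). Libraries, members and the 36 gene lists were chosen with earlier results of these data known. Genes were named by rule: Npc1, then the 15 highest and 15 lowest fold changes among genes past the threshold with non-overlapping groups and a mean CPM of 5 or more, up to 5 each way that passed only without treated replicate 4, up to 4 passing members of each list by p (up to 2 as values where none passed), the 10 smallest p of the tissue difference and the 5 smallest p between treated and untreated mice. A few further list members are given as values, and some genes the rule selects are not reported here.

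Counts were simulated from the same means, gene-wise spread and library sizes. Each gene was drawn independently, so variation shared by many genes was left out. For the treated against wild-type comparison, 11.9%, 38.8% and 87.9% of genes changed 1.5-fold, 2-fold and 4-fold were recovered (6 false calls among 12740 genes). Without replicate 4 these shares were 0%, 23.9% and 84.8% (4 false calls among 12974). Alternatives changed the tool (DESeq2 1.42.0, or voom of limma 3.58.1), the scaling (RLE factors or library totals), the filter (none, or a stricter one), the terms (sex left out, replicate block or choroid plexus score put in) and the libraries (the compared groups alone, female mice alone, or each library left out in turn).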

Additional observations from a re-analysis of the deposited data

Results flagged for a closer look

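Within groups of 4 libraries, the library totals, 11 marker scores, Npc1 and the 30 highest and lowest named genes were checked for a library whose gap to the nearest other exceeded Dixon's critical value for 4 samples, as a share of the group's range. Chance gives about 1 in 20 such groups, and 6 of 86 were found. The principal neuron score of treated replicate 4 was 5.21 against 6.37 to 6.53 in the other treated libraries. C4b was at 50.7 CPM in treated replicate 3 against 37.1 to 39.4 CPM, and Ifit1 at 17.1 CPM in the same library against 13.8 to 14.3 CPM. Gjb1 was at 5.09 CPM in treated replicate 1 against 1.76 to 2.23 CPM. In Npc1+/+ replicate 4, Cd68 was at 23.4 CPM against 15.96 to 16.3 CPM and Ugt8a at 52.2 CPM against 64.4 to 65.96 CPM. Each of these 5 genes kept its call with that library left out.

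The treated genotype difference itself differed between hippocampus and cerebellum for 245 genes. For the 10 with the smallest p the hippocampus minus cerebellum value (log2) was 3.04 for Calb1, 4.69 for Car8, 2.49 for Tuba8, 3.87 for Itpka, 2.24 for Icmt and 2.81 for Cep76, and -4.11 for Gpnmb, -2.81 for Prima1, -2.90 for Mag and -2.26 for Mal. Among these, Prima1, Mag and Mal are lower in hippocampus, Gpnmb rose in both tissues and the other 6 are lower in cerebellum.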

How the results depend on the processing

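Of 71 named genes called between treated and wild-type hippocampus, 50 were called in every alternative in which they were tested and all 71 kept their direction, while 21 lost the call in at least 1. The count of 342 genes was 689 by DESeq2 and 179 with female mice only, which left treated replicates 3 and 4. Leaving out 1 library gave 130 (treated replicate 4) to 428 genes. Without treated replicate 4 the count of 130 was 354 with no sex covariate, 305 by DESeq2, 61 with only the groups compared, 353 with only these groups and no sex covariate, and 51 with female mice only. Leaving out 1 more library gave 25 (treated replicate 3) to 161, with 39 without untreated replicate 3, 73 and 79 without Npc1+/+ replicates 3 and 2, and 83 without treated replicate 2. The count of 245 for the tissue difference was 369 with no tissue by sex term, and leaving out 1 mouse gave 131 (treated replicate 4) to 488 (Npc1+/+ replicate 4), with 159 without Npc1+/+ replicate 3. The 0 genes between treated and untreated mice stayed at 0 in each alternative run. The cause of these shifts was not tested.

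With the replicate number as a block the count of 342 became 195, of which 176 were among the 342, and that of 130 became 1. Same-numbered Npc1+/+ and treated libraries correlated at 0.58, -0.10, 0.01 and 0.23, and 1 of 4 correlated best with its own number. So few values cannot show whether the numbers pair the mice, and the untreated Npc1-/- libraries were not looked at in this way. Kcne2, a choroid plexus gene that did not pass, changed sign from -3.88 to 0.82 under the block and to 0.69 with the choroid plexus score, and Cux2, which did not pass either, went from 1.05 to between -0.048 and 1.425 with 1 library left out, the lowest without treated replicate 4.

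Depth limits genes of few counts: Cst7 had no count in Npc1+/+ hippocampus, and Atp6v0d2 had 2. With 4 mice a group, 38.8% of simulated 2-fold changes were recovered, so a gene that did not pass is not shown to be equal. Age and ion code range cannot be told apart from genotype.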

Other observations

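Of the 342 called genes, 235 lay in none of the 36 lists, 141 higher and 94 lower, and 56 of them also passed without treated replicate 4. The genes named next were chosen after their values were seen. Among lower genes, several are known from oligodendrocytes. Qdpr, dihydropteridine reductase, was at 414, 457, 449 and 393 CPM in Npc1+/+ and 203, 198, 197 and 192 CPM in treated libraries (-1.13 ± 0.12 log2, SE). Adamts4, a protease of matrix proteoglycans, was at 37.7, 53.5, 42.7 and 37.1 CPM and 9.82, 5.93, 10.03 and 8.27 CPM (-2.42 ± 0.30), and Lpar1, a receptor of lysophosphatidic acid, at 94.8, 93.5, 98.5 and 87.95 CPM and 25.2, 13.8, 27.6 and 36.1 CPM (-1.70 ± 0.22). None of the 3 had overlapping groups, and in cerebellum their values were 0.25, -0.43 and -0.03.

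Among higher genes outside the lists were further genes of phagocytes. Cyba, a subunit of the phagocyte NADPH oxidase, was at 14, 10.3, 9.399 and 9.06 CPM in Npc1+/+ and 26.97, 32.1, 32.95 and 33.9 CPM in treated libraries (1.76 ± 0.23). Slc11a1, a metal ion transporter of phagosomes, rose by 1.69 ± 0.22 and Lag3, an inhibitory receptor of the immunoglobulin family, by 1.85 ± 0.26. Cd22, a sialic acid receptor, had 2 counts in the Npc1+/+ libraries and 118 in the treated ones, a ratio of 57.1 with an exact counting interval of 15.4 to 477. Cirbp, a cold-inducible RNA-binding protein, was at 94.8, 72.4, 83.8 and 69.7 CPM and 169.9, 157, 140.3 and 192 CPM (1.06 ± 0.15). Cyba, Slc11a1, Lag3, Cd22 and Cirbp passed without treated replicate 4 as well.

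H2-D1 rose by 1.76 ± 0.18 in treated hippocampus and stood at 0.02 in cerebellum, a tissue difference of 1.77 ± 0.23 with an adjusted p (edgeR's quasi-likelihood test) of 0.000321, while H2-Q4 had 2.32 and 3.05. How reads are split among these near-identical genes was not tested.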
